A study of Rattus norvegicus with 22 samples.

Results

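The oxidative phosphorylation genes studied here encode, for the most part, the nuclear subunits of the respiratory chain and of ATP synthase. They were chosen by symbol on the array, as all genes whose name begins with Nduf followed by a, b, c, f, s or v, with Uqc, with Cox and a digit from 4 to 8, or with Atp5, together with Sdha, Sdhb, Sdhc and Sdhd. The rule found 87 genes, measured by 109 probes, among 26583 gene names and 30367 probes on the array. Of the 87, 76 encode subunits, 36 of complex I, 4 of complex II, 7 of complex III, 15 of complex IV and 14 of complex V. A further 7 carry such a name without being a subunit (assembly factors Ndufaf1 to Ndufaf4, and Cox4nb, Atp5s and Atp5sl), and 4 are like-named copies or pseudogenes (Cox6c1, Ndufb4l1, Atp5hl1 and Ndufa13-ps).

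Expression was measured in tongue tissue of 11 male F344 rats, each about 33 weeks old, on 22 one-color arrays. Every rat gave 1 piece of OSCC (oral squamous cell carcinoma) and 1 piece of neighboring phenotypically normal tongue. By the deposited protocol both pieces came from rats given the carcinogen 4-nitroquinoline 1-oxide (4-NQO) in drinking water at 20 ppm for 10 weeks, so the normal tissue had met the carcinogen as well. The deposited titles nonetheless call every animal untreated, and the treatment label of the normal pieces reads none. The pieces are whole tissue and not sorted cells, so that in every result below fewer cells of a type and less RNA per cell cannot be told apart. Levels are given as the log2 of the signal minus the log2 of the 75th percentile of its array, so that a level of 0 is the brightness of that percentile. Levels of different probes are not comparable.

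Oxidative phosphorylation takes place in the inner mitochondrial membrane. Complexes I and II pass electrons from NADH and from succinate to ubiquinone, complex III hands them on to cytochrome c, complex IV (cytochrome c oxidase) gives them to oxygen, and complex V (ATP synthase) uses the resulting proton gradient to make ATP. Skeletal muscle, the bulk of the tongue, is rich in mitochondria, and in some subunits of complex IV it uses isoforms of its own, Cox6a2, Cox7a1 and Cox8b, in place of Cox6a1, Cox7a2 and Cox8a. Cox4i2 is a tissue isoform of Cox4i1 known from lung.

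Because the comparison of isoforms rests on telling close relatives apart, the first 30 bases of each of their 60-base probes are shown, in lower case and 5′ to 3′.
Cox6a2: gctctaagggcccctgaggttccagtggac
Cox6a1: accacgaaagcccattggatgctcagctca
Cox7a1: caagaagctcagaggacttgggcaaacatc
Cox7a2: gatgaataactgaactcttctatggggatc
Cox8b: taagagaagctccgcagcatgaggagctcg
Cox8a: gtgacaactgggaccacatatattggttct
Cox4i2: tgtcttgtctcctccattcccttctgctcc
Cox4i1: tcagcatgctggaagctgctgtgtccaatg
Between the 60-base probes of an isoform and its counterpart the longest identical run was 4 bases for Cox6a2 with Cox6a1 and for Cox8b with Cox8a, 6 bases for Cox4i2 with Cox4i1 and 7 bases for Cox7a1 with Cox7a2. Probes were compared with each other only and not with the counterpart's transcript. Binding of a probe to the counterpart's RNA was therefore not tested. The probes lay, in build rn4, at chr1:187464580-187464639 for Cox6a2, chr12:42533025-42533084 for Cox6a1, chr8:84813316-84813375 for Cox7a2, chr1:201057325-201057384 for Cox8b, chr1:209886158-209886217 for Cox8a, chr3:143114177-143114236 for Cox4i2 and chr19:51030141-51030200 for Cox4i1. Cox7a1 was not found by name. Its probe carries no gene symbol or position, and it was taken as Cox7a1 because the array's description names the heart form of subunit VIIa, so it lies outside the 87 genes.

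Expression of oxidative phosphorylation genes was lower in OSCC across all 5 complexes. Of the 87 genes, 65 were called lower in OSCC by limma (adjusted p below 0.05 over all probes and at least 2-fold) and 0 were called higher, whereas 6.97% of all 30367 probes were called lower and 6.86% higher. At an adjusted p below 0.05 with no minimum fold, 78 of the 87 were lower and 0 were higher, against 27.9% and 16.2% of all probes. The median log2 difference (OSCC minus normal) was -1.20 over the 87 genes, -1.23 over the 76 subunits and -0.24 over all probes. Of the 87 genes, 82 were well above background on all 22 arrays, and over the 13597 probes of which that is true 8.77% were called lower and 5.42% higher (28.4% and 19.4% with no minimum fold), with a median difference of -0.08. Without the pairs of animals 21, 22 and 24, 73 of the 87 were called lower and 0 higher. The authors named these animals as examples of variable expression. They also had the smallest changes of the 87 genes, so a higher count without them follows from the choice and is no support. Of all probes 14.1% were then called lower and 8.69% higher.

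The fall was shared by the complexes rather than being that of a few genes. Called lower were 32 of 36 genes of complex I, 4 of 4 of complex II, 6 of 7 of complex III, 8 of 15 of complex IV and 12 of 14 of complex V. Median log2 differences were -1.22, -1.40, -1.08, -1.07 and -1.23 in the same order. Only complex IV held both the widest falls and several genes that were nearly level, with values from -2.92 to -0.18. Of the genes that are not subunits, 2 of 7 were called lower, with a median of -0.51. Whether the complexes differ from each other was not tested.

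**Figure D1:**
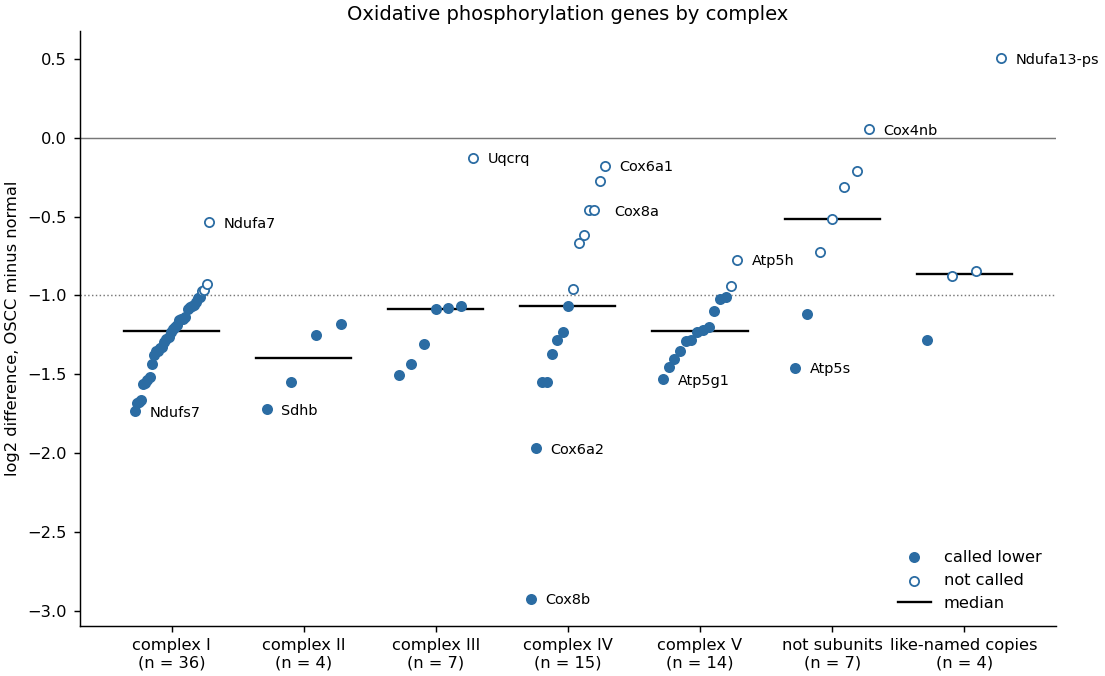
The log2 difference (OSCC minus normal, limma, 11 pairs) of each of the 87 genes is plotted by complex. Filled points were called lower, open points were not called, black lines are medians and the dotted line marks 2-fold. In each of the 5 complexes most points lie between -0.5 and -1.75, and Cox8b (-2.92) and Cox6a2 (-1.97) lie below all others.

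In complex I, which takes electrons from NADH, all 36 genes were lower at an adjusted p below 0.05. Ndufs7, an iron-sulfur subunit of the electron path, had levels of 4.30, 4.96 and 5.05 in normal tissue (lowest, median and highest of 11 arrays) and of 1.87, 2.70 and 4.96 in OSCC. It fell by 1.73 ± 0.31 on the log2 scale (SE, 11 pairs; 3.33-fold lower; limma adjusted p = 0.00131), in 11 of 11 pairs. The OSCC array was below the lowest normal array in 9 of 11 animals, so the groups overlapped through the other two. For Ndufa5, an accessory subunit, levels ran from 4.83 to 6.04 (median 5.65) in normal tissue and from 3.02 to 5.52 (median 3.54) in OSCC, a difference of -1.67 ± 0.24 (SE; adjusted p = 0.000519). The accessory subunit Ndufa10 changed by -1.68 ± 0.29 (adjusted p = 0.00109), from a normal median of 3.21 to 1.02 in OSCC. These 3 were the largest falls of the complex.

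The smallest falls of complex I were those of Ndufs4 (-0.97), Ndufs5 (-0.93) and Ndufa7 (-0.54 ± 0.10 SE; adjusted p = 0.00161), and together with Ndufb6 (-0.97) they were the 4 genes of the complex not called, because their change was under 2-fold. Ndufa7 was measured by a dim probe, with levels from -1.80 to -1.40 in normal tissue and from -2.37 to -1.70 in OSCC. Some genes gave a different size by another probe. A second probe of Ndufs4 changed by -1.90, and a second probe of Ndufv3, whose brightest probe changed by -1.15, changed by -0.39. The probes of Ndufa10 (-1.68) and Ndufa10l1 (-1.14) lie near each other on the same strand, at chr9:91654891-91654950 and chr9:91655487-91655546. Whether they measure the same gene is uncertain, and both are counted in complex I.

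All 4 subunits of complex II, succinate dehydrogenase, which also serves the citric acid cycle, were called lower. Sdhb, the iron-sulfur subunit, had normal levels of 3.98, 4.63 and 4.74 (lowest, median, highest) and OSCC levels of 1.84, 2.40 and 4.45. Its difference was -1.72 ± 0.26 (SE; 3.30-fold lower; adjusted p = 0.000634), and it was lower in 11 of 11 pairs. The membrane anchors Sdhd and Sdhc changed by -1.55 ± 0.29 (adjusted p = 0.00198) and -1.18 ± 0.20 (adjusted p = 0.0012). Sdha, the flavoprotein that oxidizes succinate, changed by -1.25 ± 0.26 (adjusted p = 0.00325) and was lower in 9 of 11 pairs, its OSCC levels running from 2.28 to 4.77 against 3.94 to 4.91 in normal tissue. For each of the 4 genes 9 of 11 OSCC arrays were below the lowest normal array.

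Complex III, cytochrome bc1, showed its largest falls in Uqcrfs1, the Rieske iron-sulfur protein, in the small subunit Uqcr (now Uqcr11) and in Uqcrb, the ubiquinone-binding protein. Uqcrfs1 went from normal levels of 5.0 to 5.85 (median 5.63) to OSCC levels of 3.18 to 5.67 (median 3.67), a difference of -1.50 ± 0.25 (SE; adjusted p = 0.00103) with 11 of 11 pairs lower. Uqcr and Uqcrb changed by -1.43 and -1.31, likewise in 11 of 11 pairs. The core protein Uqcrc2 (-1.08 ± 0.24; adjusted p = 0.00501) and the hinge protein Uqcrh (-1.07 ± 0.18; adjusted p = 0.00104) lay close to the 2-fold line. Uqcrq was the exception, at -0.13 ± 0.23 (adjusted p = 0.658), but its probe was dim, with levels from -4.02 to -2.19 in normal tissue, and was well above background on only 19 of 22 arrays. Uqcr10, listed on the array under an older name and so outside the 87, changed by -1.01 ± 0.20 (adjusted p = 0.00219).

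In complex V the largest falls were those of Atp5g1 (-1.53 ± 0.27 SE; adjusted p = 0.0012), of Atp5i, the e subunit (-1.45 ± 0.22; adjusted p = 0.000567), and of Atp5e, the epsilon subunit (-1.40 ± 0.22; adjusted p = 0.000758). Atp5e had levels of 6.42 to 7.21 (median 6.96) in normal tissue and of 4.61 to 6.90 (median 5.17) in OSCC. Atp5g1, Atp5g2 and Atp5g3 encode the same mature c subunit of the rotor ring with different import sequences, and they changed by -1.53, -0.94 ± 0.16 (adjusted p = 0.00114) and -1.29 ± 0.21 (adjusted p = 0.000931). Differences among the 3 were not tested. Atp5h, the d subunit, had the smallest fall (-0.77 ± 0.17; adjusted p = 0.00366), and Atp5g2 and Atp5h were the 2 genes of this complex not called.

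**Figure D2:**
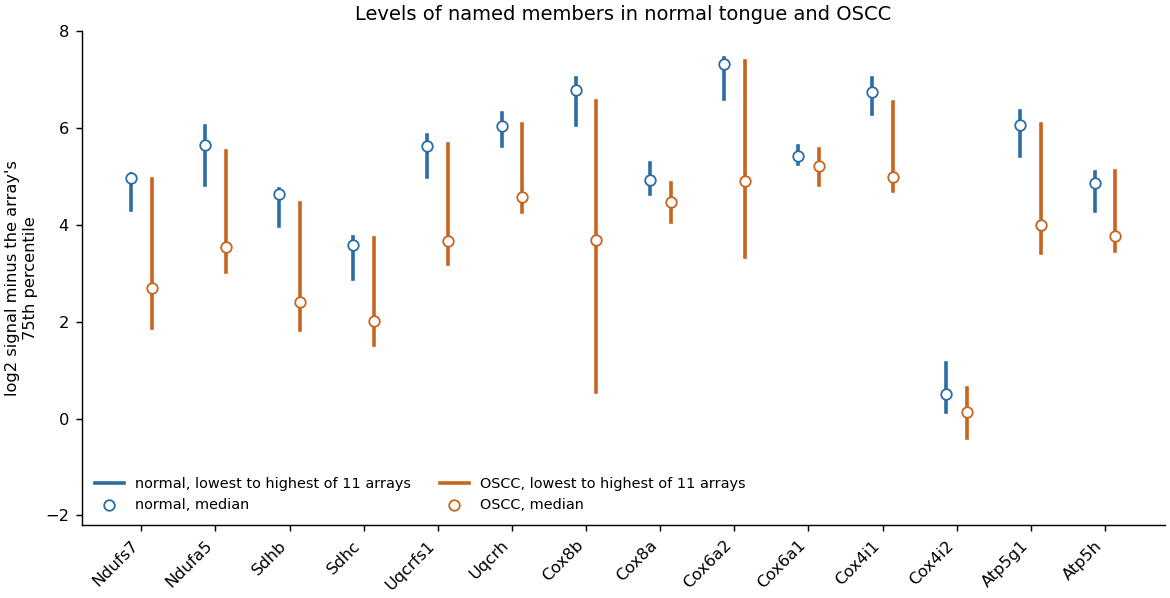
Levels (log2 signal minus the 75th percentile of the array) of 14 genes are plotted for normal tissue and OSCC, with a bar from the lowest to the highest of 11 arrays and an open point at the median. Bars are to be compared within a gene. OSCC medians lie below the normal bar for all of them but Cox4i2 (0.14 against a lowest normal level of 0.13), and the OSCC bars of most genes reach up into the normal range.

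Genes of complex IV fell unequally. Cox4i1, the regulatory subunit IV, had levels of 6.30, 6.75 and 7.04 in normal tissue and of 4.71, 5.0 and 6.54 in OSCC, and fell by 1.37 ± 0.20 on the log2 scale (SE; adjusted p = 0.000517). Cox7b (-1.55 ± 0.22; adjusted p = 0.000439), Cox6c (-1.55 ± 0.25; adjusted p = 0.000815), Cox7a2 (-1.23 ± 0.20; adjusted p = 0.000849) and Ndufa4, now counted with this complex (-1.07 ± 0.20; adjusted p = 0.00186), were called lower as well. Cox6b1, on the array under an older name and outside the 87, changed by -1.11 ± 0.18 (adjusted p = 0.000796). By contrast, Cox8a changed by -0.46 ± 0.11 (adjusted p = 0.00632), and Cox7a2l, which joins complexes III and IV into supercomplexes, by -0.28 ± 0.13 (adjusted p = 0.1). For Cox6a1 the difference was -0.18 ± 0.11 (adjusted p = 0.18), and it turned to 0.15 under quantile normalization. Normal levels of Cox6a1 were 5.25, 5.42 and 5.64, and OSCC levels 4.82, 5.21 and 5.56.

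Muscle isoforms of complex IV had the largest falls. Cox8b had levels of 6.06, 6.80 and 7.04 in normal tissue (lowest, median, highest) and of 0.54, 3.68 and 6.55 in OSCC. It changed by -2.92 ± 0.52 (SE; 7.58-fold lower; adjusted p = 0.0014), and the change in single animals ran from -5.58 to -0.05. Cox6a2 went from 6.60, 7.32 and 7.45 to 3.35, 4.91 and 7.38, a difference of -1.97 ± 0.40 (SE; 3.92-fold lower; adjusted p = 0.00303), with 10 of 11 pairs lower. The probe taken as Cox7a1 went from 1.02, 3.62 and 3.95 to -3.28, 0.14 and 3.19, a difference of -3.11 ± 0.53 (SE; 8.62-fold lower; adjusted p = 0.00113). In these 3 genes 8 or 9 of the 11 OSCC arrays were below the lowest normal array, and the rest lay in the normal range. The probe taken as Cox7a1 did not follow Cox6a2 and Cox8b in every animal. It changed by -4.01 in animal 21, against -0.45 and -1.29, and by -1.62 in animal 26, against -3.04 and -3.98. Its SD over normal arrays was 0.85, against 0.30 and 0.35. Whether this probe measures Cox7a1 was not tested.

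The change of each isoform was set against that of its counterpart within each animal, with a two-sided exact permutation test that flips the signs of the 11 differences, and with p adjusted over the 4 comparisons; the smallest p it can give is 0.000977. Cox6a2 fell further than Cox6a1 by 1.79 ± 1.60 on the log2 scale (SD, n = 11), in 9 of 11 animals (exact p = 0.00684, adjusted 0.00911). Cox7a1 changed by -1.88 ± 1.63 more than Cox7a2 (SD, n = 11), in 10 of 11 animals (exact p = 0.00195, adjusted 0.00781). For Cox8b against Cox8a the difference was -2.46 ± 1.96 (SD, n = 11), again in 9 of 11 animals (exact p = 0.00586, adjusted 0.00911). By this test the mean of each of the 3 differences was other than 0. The SD between animals was of similar size to the mean, and the order was reversed in 2, 1 and 2 animals. Without animals 21, 22 and 24 the mean differences were -2.57, -2.01 and -3.41.

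For Cox4i2 the order was turned, with the counterpart falling further. Its levels were 0.13, 0.51 and 1.15 in normal tissue and -0.39, 0.14 and 0.63 in OSCC, a difference of -0.46 ± 0.15 (SE; adjusted p = 0.0315), which is less of a fall than that of Cox4i1 by 0.91 ± 1.05 (SD, n = 11) in 8 of 11 animals (exact p = 0.0205, adjusted 0.0205). Under quantile normalization the same difference was 0.59, with an adjusted p of 0.0537 by the exact test, and over the 9 pairs scanned on different days it was 0.82, with an adjusted p of 0.0742. Cox6a2 and Cox8b are few among the 76 subunits, so leaving them out could hardly move a median. With Cox6a2 and Cox8b left out, the median over the other 74 subunits was -1.22, and 60 of the 74 were called lower.

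**Figure D3:**
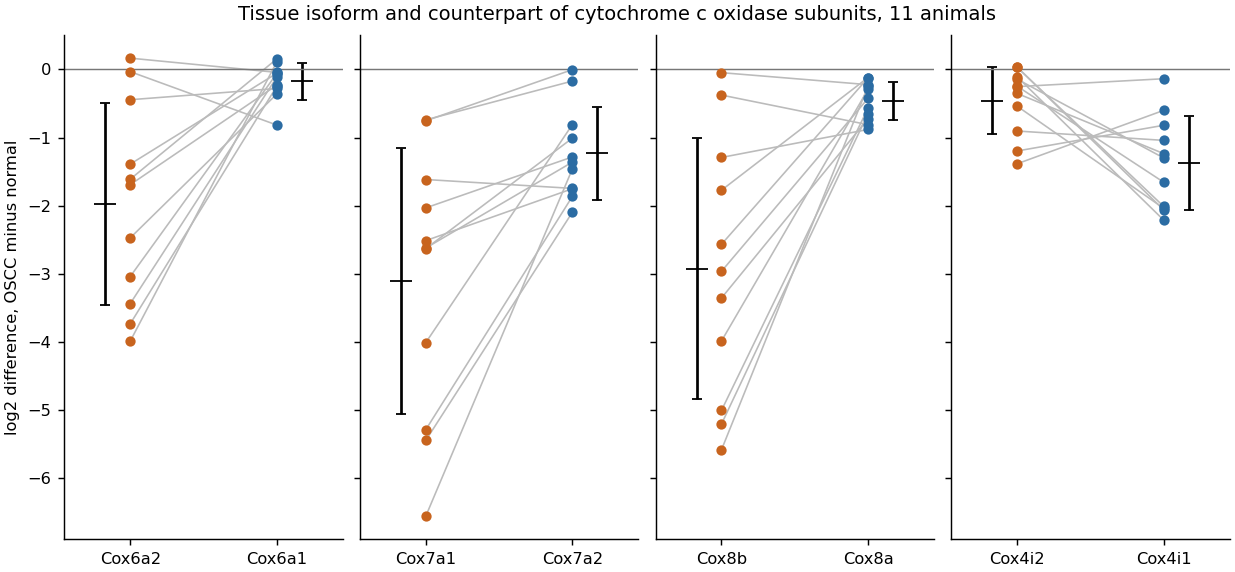
The log2 difference (OSCC minus normal) in each of 11 animals is plotted for 4 tissue isoforms (orange) and their counterparts (blue) of cytochrome c oxidase, with grey lines joining the values of 1 animal and the mean ± SD in black. Cox6a2, Cox7a1 and Cox8b spread down to -3.99, -6.55 and -5.58, whereas Cox6a1 and Cox8a stay between -0.88 and 0.15.

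Not all of these genes could be measured. Cox8c, the testis isoform, and the assembly factor Ndufaf2 stayed near background on all 22 arrays, and Ndufa13-ps was well above it on 1; Cox8c is among the 78 that passed the test. In all, 84 of the 87 were well above background on at least 11 arrays. Cox7c was well above background on only 12 arrays, and its single-animal differences ran from -3.29 to 3.0 (mean -0.62 ± 0.49 SE; adjusted p = 0.306). Among the genes that are not subunits, Atp5s (-1.46) and the assembly factor Ndufaf3 (-1.12) were called lower. Ndufaf1 (-0.21), Ndufaf4 (-0.31) and Cox4nb (0.05) were not, and 3 further probes of Ndufaf4 gave differences from 0.09 to 0.16. Of the copies, Cox6c1 was called lower (-1.28 ± 0.42; adjusted p = 0.0292); how much of its signal comes from Cox6c is uncertain, and the same holds for Ndufb4l1 with Ndufb4 and Atp5hl1 with Atp5h. Of 15 genes with more than 1 probe well above background on at least 11 arrays, Ndufaf4 was the 1 whose probes differed in sign.

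The 11 animals fell into a wide range. The median difference over the 87 genes was -2.08, -2.01 and -1.91 in animals 25, 11 and 26, between -1.66 and -1.08 in animals 9, 13, 16, 4 and 17, and -0.68, -0.19 and 0.03 in animals 21, 24 and 22. In animal 25, 85 of 87 genes were lower and 77 were lower by at least 2-fold, whereas in animal 22, 36 were lower, 51 were higher and 0 reached 2-fold in either direction. The OSCC array of animal 22 was below the lowest normal array for 2 of the 87 genes and that of animal 24 for 8, against 66 for animal 21 and 77 to 82 for the other 8 animals. Thus 62 of 87 genes had the OSCC arrays of the 9 animals other than 22 and 24 below every normal array. Animals 22 and 24 were set aside here because these same genes overlapped in them. The share of all probes under that rule was not counted. With all 11 animals 0 of 87 genes were without overlap, as against 0.978% of all probes lower on every OSCC array than on every normal array. A fall in all 11 pairs was seen for 27 of 87 genes, against 5.25% of all probes.

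The 5 complexes moved together in most animals. In animal 26 their medians were -1.99, -2.50, -2.04, -1.60 and -1.95 for complexes I to V, and in animal 21 they were -0.69, -0.78, -0.66, -0.74 and -0.67. In animals 22 and 24, which changed least, the signs were mixed, with complex II at 0.18 and complex IV at -0.31 in animal 24. OSCC arrays were also more spread than normal arrays, with a median SD over the 76 subunits of 0.77 against 0.28. The per-array median level of the subunits was 4.62, 5.17 and 5.39 in normal tissue (lowest, median, highest) and 3.04, 3.57 and 5.14 in OSCC, and the 75th percentile signal itself was 237, 382 and 655 in normal tissue and 339, 587 and 1414 in OSCC.

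**Figure D4:**
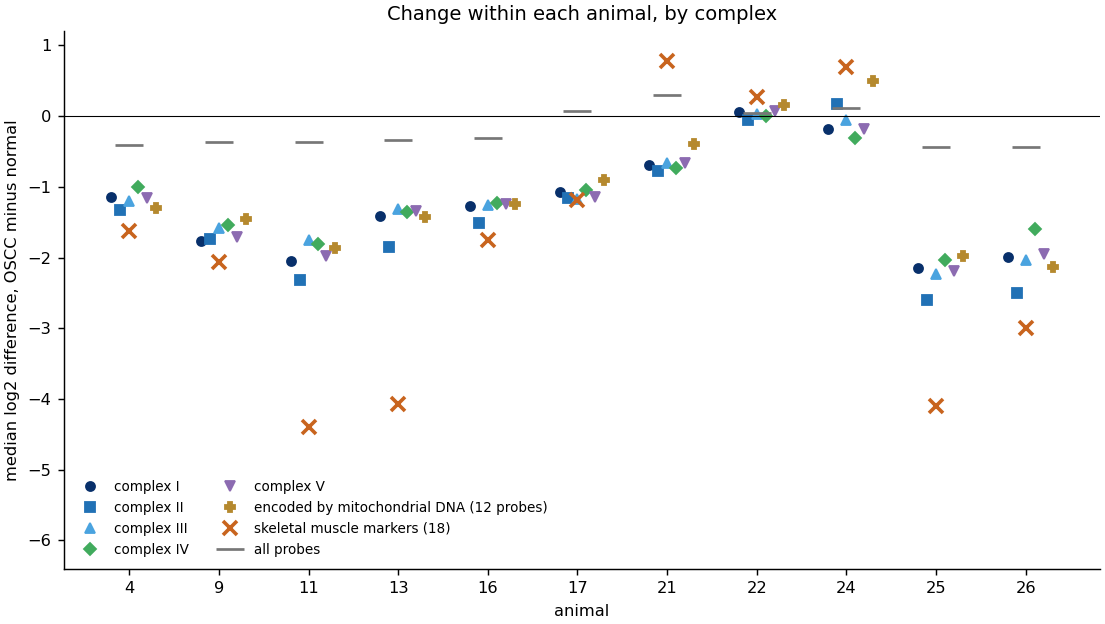
The median log2 difference (OSCC minus normal) within each animal is plotted for complexes I to V, for 12 probes to genes encoded by mitochondrial DNA, for 18 skeletal muscle markers and for all probes. In animals 11, 13 and 25 the muscle markers fell below -4 while the complexes lay between -1.31 and -2.61, and in animal 21 the muscle markers were at 0.78 while the complexes lay between -0.66 and -0.78.

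Markers of skeletal muscle moved with these genes in most animals. Beside the counts of this and the following lists stand the shares over all probes, 6.97% called lower and 6.86% called higher. Of 18 muscle markers measured, 13 were called lower, such as Eno3 (-2.58), Mb, the muscle oxygen store (-2.43) and Ckm, muscle creatine kinase (-2.19), and 2 were called higher, the slow-fiber genes Tnnt1 (4.00) and Tnni1 (1.78). Their median was -1.84, and their summed level (in multiples of the 75th percentile signal) ran from 1776 to 3614 in normal tissue and from 123 to 4155 in OSCC, lower in 8 of 11 pairs. The 3 animals with a median muscle marker difference above 0 were 21 (0.78), 24 (0.70) and 22 (0.26), which were also the 3 with the smallest change of the 87 genes. Animal 21 nevertheless had 82 of 87 genes lower, 12 of them by at least 2-fold. The part of muscle content in the fall of these genes was not tested.

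Other cell types differed between the tissues as well. All 7 gland markers were called higher, with a summed level of 0.178 to 2.64 in normal tissue and 2.24 to 5161 in OSCC, and 3 of the 7 did not rise well above background in any normal piece. Called higher were also 5 of 5 neutrophil, 5 of 6 macrophage, 5 of 6 T and B cell and 5 of 6 fibroblast markers. All 8 squamous epithelium markers were well above background on all 22 arrays, and they had a median difference of -0.08, with 1 of 8 called in each direction, and summed levels of 472 to 996 in normal tissue and 247 to 1033 in OSCC. Of endothelial, pericyte and smooth muscle, and adipocyte markers, 0 of 5, 1 of 6 and 0 of 5 were called lower and 0 were called higher. The part of these cell types in the fall was not tested either.

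Genes encoded by mitochondrial DNA, which supply the core of complexes I, III, IV and V, were measured by 12 probes, chosen after the array annotation had been seen and all well above background on all 22 arrays. No probe was named for a complex III gene alone. Called lower were 8 of the 12 and 0 were called higher, with a median of -1.13. Nd2 (-1.51 ± 0.28 SE; adjusted p = 0.00172), Nd4 (-1.42) and Co2 (-1.11) were among them. Atp8 (-0.99), Co1 (-0.85) and Atp6 (-0.81) fell by less than 2-fold, and Nd6, the gene read from the opposite strand, was at -0.25 ± 0.28 (adjusted p = 0.46). Per animal their median ran from -2.14 in animal 26 to 0.50 in animal 24.

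The citric acid cycle feeds complexes I and II. Of 17 genes measured, which include those of pyruvate dehydrogenase, the enzyme that supplies the cycle (Pdha1, Pdhb and Dlat, all 3 called lower), 13 were called lower and 0 higher, with a median of -1.22, among them Idh3a (-1.74) and Mdh2 (-1.39), both NAD-linked dehydrogenases of the cycle. Citrate synthase Cs fell by 0.67 on the log2 scale and was not called, and Idh3b was at -0.14 (adjusted p = 0.218). Of 43 further respiratory chain genes (cytochrome c, ubiquinone synthesis, assembly factors and carriers), 15 were called lower and 0 higher, with a median of -0.74. Cyc1, cytochrome c1 of complex III (-1.49), Cycs, cytochrome c itself (-1.10), and the ubiquinone genes Coq10a (-2.13), Coq9 (-1.76) and Coq7 (-1.58) were called, as was Slc25a4, the muscle and heart ADP/ATP carrier (-1.47). Slc25a5, its widely expressed relative, changed by -0.69 and was not called, and Coq10b passed the test in the other direction (0.52; adjusted p = 0.0198).

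Machinery that builds and maintains mitochondria changed less by median. Of 70 mitochondrial ribosome genes 3 (4.29%) were called lower and 0 higher, with a median of -0.54, against 6.97% of all probes called lower. At an adjusted p below 0.05 with no minimum fold 52 of the 70 were lower and 1 was higher, against 27.9% and 16.2% of all probes. Of 27 genes of import and upkeep, 4 (14.8%) were called lower and 0 higher, with a median of -0.42. The 4 were Mfn2, which fuses mitochondria (-1.49), the outer membrane channels Vdac2 (-1.16) and Vdac3 (-1.16), and Timm50, which stayed near background on all 22 arrays. Tfam, which packages mitochondrial DNA, was at -0.40 (adjusted p = 0.0509), and the import pore Tomm40 at 0.06. The lists are described by these counts and medians only, and no difference between lists was tested.

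**Figure D5:**
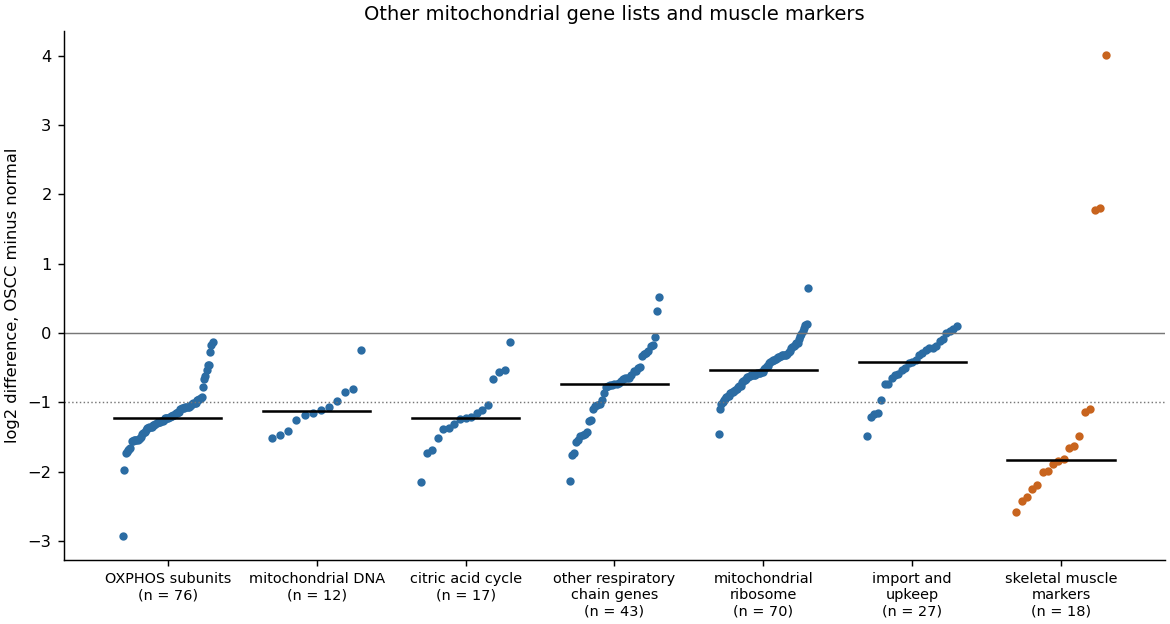
Log2 differences (OSCC minus normal) of single genes are plotted in order within each list, with black lines at the medians and a dotted line at 2-fold. Medians are -1.23 for the 76 subunits, -1.13 for mitochondrial DNA, -1.22 for the citric acid cycle with pyruvate dehydrogenase, -0.74 for other respiratory chain genes, -0.54 for the mitochondrial ribosome, -0.42 for import and upkeep, and -1.84 for muscle markers, of which 3 lie above 0.

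Promoters of the subunit genes were then read, since the genes fell together and the muscle isoforms fell furthest. The 250 bases before the start of the gene were available in RefSeq (GRCr8) for 65 of the 76 subunits and are shown for Cox8b, Cox6a2 and Cox8a, with capitals at the E-box CAGCTG, a site of the kind bound by muscle regulatory factors.
Cox8b (chr1:205408274-205408523, minus strand): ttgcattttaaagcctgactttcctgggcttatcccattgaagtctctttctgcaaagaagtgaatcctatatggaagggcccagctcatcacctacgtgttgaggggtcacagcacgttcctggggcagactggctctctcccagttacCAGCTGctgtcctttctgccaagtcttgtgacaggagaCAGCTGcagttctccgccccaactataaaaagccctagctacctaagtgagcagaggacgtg
Cox6a2 (chr1:192219717-192219966, minus strand): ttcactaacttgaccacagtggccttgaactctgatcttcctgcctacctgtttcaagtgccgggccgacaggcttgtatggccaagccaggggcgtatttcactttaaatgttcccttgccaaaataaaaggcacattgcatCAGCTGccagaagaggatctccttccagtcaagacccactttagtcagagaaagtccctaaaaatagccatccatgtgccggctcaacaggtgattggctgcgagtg
Cox8a (chr1:213833624-213833873, minus strand): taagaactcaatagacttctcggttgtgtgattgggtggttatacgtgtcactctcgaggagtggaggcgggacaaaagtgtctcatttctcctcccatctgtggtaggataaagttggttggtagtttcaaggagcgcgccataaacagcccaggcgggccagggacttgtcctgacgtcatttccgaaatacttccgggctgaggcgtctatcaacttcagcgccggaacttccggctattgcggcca
Cox8b held 2 and Cox6a2 held 1 such E-box, and Cox8a held 0. Cox7a1 and Cox7a2 held 0, and Cox4i1 held 1. An E-box was present in 9 of the 65 subunit promoters (13.8%) and in 12% of all 33469 promoters in the table. The motif of NRF-1, a palindrome read by a factor known for control of respiratory genes, was present in 11 of the 65 (16.9%) and in 3.75% of all promoters. The ERR motif TCAAGGTCA, known from estrogen-related receptors, was in 0 of the 65 and in 0.388% of all. Both strands were searched, and no motif contains another. The muscle isoforms also had few CG steps in this window, 4 in Cox8b, 5 in Cox6a2 and 4 in Cox7a1, whereas Cox8a had 15, Cox7a2 23 and Cox4i1 31. The median was 17 over the 65 subunit promoters and 5 over all promoters, and Cox7b, with 5, was the 1 other subunit with no more than 5. The set of all promoters was not matched to the subunits for CG steps, so the part of CG content in the motif shares was not tested. These are descriptions of sequence, and binding was not measured.

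The arrays of the 2 tissues were mostly scanned apart, with 2 of 11 OSCC arrays (animals 4 and 9) scanned on the day of the normal arrays and 9 on another day. Within the 2 pairs scanned on 1 day the median over the 87 genes was -1.11 and -1.66, against -0.41 and -0.37 over all probes. With scan day as a further term, which leaves the difference to those 2 pairs, the median was -1.39, 0 of the 87 genes (and 3 of 30367 probes) were called lower by limma and 63 were lower by at least 2-fold at an unadjusted p below 0.05, as were 25.2% of all probes in that fit. Over the 9 other pairs alone 60 genes were called lower and 0 higher, against 5.52% and 5.73% of all probes. The choice of scaling moved the count of genes called lower from 65 to 40 under quantile normalization, to 72 with the array median and to 53 with the 75th percentile of probes well above background on all arrays, with 0 called higher under each. These 3 scalings put the median of all probes at -0.03, -0.44 and -0.15 and that of the 87 genes at -0.98, -1.40 and -1.11. In the same order 6.25%, 10.4% and 5.92% of all probes were called lower, and 6.39%, 5.07% and 7.93% higher.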

How the data were processed

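Gene expression in 11 pairs of OSCC and adjacent normal tongue was measured on Agilent one-color rat arrays. The authors extracted the intensity values with Agilent Feature Extraction (9.5.3.1 in the deposited files), which subtracts background and removes spatial trends, and also deposited those signals as a ratio to the 75th percentile of the array. Names and positions (rn4) come from the array annotation, and current names from RefSeq (GRCr8) by accession.

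Control spots and 9196 outlier spots were left out, the log2 signals of a probe were averaged, and the 75th percentile of the array was subtracted. No filter on low values was applied. For the paired comparison of the tissues, limma 3.58.1 (R 4.3.3) was fitted with terms for animal and tissue, and p was adjusted by Benjamini-Hochberg over 30367 probes. Calls required an adjusted p below 0.05 and at least 2-fold. Samples are paired because every rat gave both tissues, whose deviations correlated by -0.21 to 0.24 (median -0.02). On simulated data with 200 of 30299 probes changed by 2 log2 units, 183 (91.5%) were called, and 8 unchanged probes were called. The simulation drew each probe on its own, with the same SD in both tissues and no animal effect. In the data OSCC arrays were more spread and most changes were smaller, so these figures are not the error rates of the calls above.

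The brightest probe over 22 arrays stood for a gene. Isoform changes were compared by exact sign-flip permutation over all 2048 sign patterns. A comparison of Ndufa4l2 with Ndufa4 was also planned, but Ndufa4l2 was not analysed here, nor were Ndufb1, Ndufc1, Cox6b2, Cox7b2 and the f subunit of ATP synthase. Named were the isoforms and their counterparts, all of complex II, the 3 largest and 3 smallest falls of each other complex among probes well above background on at least 11 arrays, genes called higher or never well above background, and genes whose probes disagreed in sign while 1 was called; other names were chosen after their values were seen. Genes and lists were chosen with earlier results of these data known. Precision is limited by the number of arrays. Alternatives are given in the closing section. Python 3.11.15, scipy 1.17.1 and matplotlib 3.10.9 were used for tests and plots.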

Additional observations from a re-analysis of the deposited data

How the results depend on the processing

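The 65 genes called lower became 40 under quantile normalization and 0 with scan day as a term, and the 0 called higher became 1 (Cox7c, 1.74, a dim probe) over the 2 pairs scanned on 1 day. Over those 2 pairs 69 were called lower, but so were 33.6% of all probes, and 10.1% of all probes were called higher. Under the other alternatives the count lower stayed within 1.5 times and the count higher was 0. With any 1 animal left out 52 to 70 were called lower (52 without animal 25) and 0 to 0 higher, and 5.89% to 8.52% of all probes were called lower. The median over the 87 genes ran from -1.31 to -1.11 with 1 animal left out. Without the pairing (no animal term), 65 were called lower, 0 higher and no named gene changed its call. Means are fixed by the balanced design, so the isoform differences stay at -1.79, -1.88, -2.46 and 0.91 and the median at -1.20, and the adjusted p of the 4 isoform comparisons became 0.00197, 0.00197, 0.00197 and 0.00432 by a permutation test of 100000 resamples.

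Over the 2 pairs scanned on 1 day the isoform differences were -1.79 for Cox6a2, -1.19 for Cox7a1, -2.58 for Cox8b and 1.33 for Cox4i2, and no test with 2 pairs can pass. Cox4i2 against Cox4i1 was 0.59 under quantile normalization and 0.82 over the 9 other pairs, and its adjusted p no longer passed the threshold in either; the cause was not tested. Leaving out 1 animal gave -2.05 to -1.56 for Cox6a2, -2.08 to -1.55 for Cox7a1, -2.75 to -2.17 for Cox8b and 0.79 to 1.08 for Cox4i2, each at an adjusted p below 0.05 by the exact test. Cox6a1 turned to 0.15 and Ndufaf2 to 0.00498 under quantile normalization, and Uqcrq to 0.57 with scan day as a term and over the 2 pairs scanned on 1 day; none of the 3 was called in any of these. Near 2-fold, calls turned on 1 animal: without animal 25 Atp5d (-0.92), Ndufa4 (-0.97), Uqcrc2 (-0.96), Uqcrh (-0.99) and Uqcr10 (-0.92) were no longer called, likewise Atp5d and Uqcr10 without 9, 11 or 26, Uqcr10 without 13, Ndufa4 without 11 and Uqcrc2 without 26, whereas Ndufs4 was called without 4, 22 or 24 and Ndufs5 and Atp5g2 without 22. No probe of the 87 was saturated, so leaving out saturated ones changed nothing. A planned comparison of isoform proteins was not run. Dim probes (Cox7c, Uqcrq, Ndufa7) limit what can be said of those genes.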
